A study of Mus musculus with 9 samples.

Results

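Collagens, laminins and the glycoproteins that join them make up the extracellular matrix, the scaffold on which the intestinal epithelium stands. The 62 genes described here were the rows of the count table, of 46095 gene symbols in all, whose symbol was that of a collagen chain (Col, a number, a, a number) or a laminin chain (Lama, Lamb or Lamc with a number), together with *Fn1*, *Nid1*, *Nid2*, *Hspg2*, *Agrn*, *Tnc* and *Vtn*. The rule used symbols and no measured value. Of the 62 genes, 23 encode parts of the basement membrane and 39 do not, and 11 of the latter encode fibrillar collagens.

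RNA came from intestinal epithelial cells (IECs) of mouse colon, released with EDTA, in 4 libraries of Smad4 Vil-KO mice and 5 libraries of double knockout mice (DDKO, Smad4 Vil-KO;Setd2 Vil-KO). Cre under the Villin promoter deleted floxed *Smad4* in the intestinal epithelium of both groups, and floxed *Setd2*, which encodes the enzyme that trimethylates histone H3 at lysine 36, in the DDKO group alone. Mice were on a C57BL/6j background, and both groups received azoxymethane (AOM) at 10 mg/kg at 8 weeks of age and then 1 cycle of 2% dextran sodium sulphate (DSS), with IECs taken at 10 days. No untreated mice and no mice with intact *Smad4* were compared here, so that every difference below is that of the DDKO group from mice that lacked SMAD4 in the epithelium as well. The labels number the libraries and do not say that each came from a separate animal, so that p-values measure the spread between these libraries.

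The basement membrane is a thin sheet under every epithelium, built from a laminin polymer and a network of type IV collagen, which nidogens and the proteoglycans perlecan and agrin connect. A laminin is a trimer of 1 α, 1 β and 1 γ chain, and epithelial cells grip it through integrins. In the intestine, epithelium and the fibroblasts beneath it both contribute to this sheet, while the fibrillar collagens of the interstitial matrix are known mainly as products of fibroblasts.

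The libraries held 12487129 to 17120202 counts, and 1 count was worth 0.0594 to 0.0794 CPM (counts per 1000000 of the library size, normalized by TMM). *Setd2* was at 99.2 to 120.1 CPM in the Smad4 Vil-KO libraries and at 53.9 to 87.1 CPM in the DDKO libraries, lower by 0.77 ± 0.14 on the log2 scale (SE, edgeR quasi-likelihood test, adjusted p = 0.00756). *Smad4*, deleted in both groups, was at 54.3 to 92.7 and 38.2 to 114 CPM, and a gene total does not show which exons were read. Counts of Y-linked genes were 0 to 1 in the Smad4 Vil-KO libraries, 3857 to 4907 in DDKO 1, 2 and 5 and 0 to 28 in DDKO 3 and 4. The 10 epithelial markers, *Epcam* and *Vil1* among them, were all tested and none passed in either direction by edgeR (3 had an unadjusted p under 0.05), with a summed level of 17162 to 19418 CPM in the Smad4 Vil-KO libraries and 15401 to 18530 CPM in the DDKO libraries.

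The matrix genes were a minor share of this RNA, 0.0647% to 0.0772% of all counts in the Smad4 Vil-KO libraries and 0.0545% to 0.0948% in the DDKO libraries. Of the 62 genes, 61 had a count in some library, and 35 passed the filter on low counts and were tested. Of these 35, 15 passed an adjusted p under 0.05 (edgeR quasi-likelihood test, adjusted by Benjamini-Hochberg over 14593 genes), which was 42.9%, beside 13.3% of all genes tested. In the DDKO group, 5 were higher, beside 6.76% of all genes tested, and 10 were lower, beside 6.54%. Of the 5, *Nid2* and *Col4a5* were under the cutoff of the filter in every Smad4 Vil-KO library and passed it through the DDKO group alone, so that these 2 could enter the test only by being higher there. Leaving out 1 library gave 2 to 5 higher and 5 to 10 lower genes, with the fewest lower without Smad4 Vil-KO 3 and the fewest higher without Smad4 Vil-KO 1, 2 or 4 or DDKO 2 or 4. With a term for libraries rich in Y-linked counts, 3 were higher and 5 lower, and in the 6 libraries without such counts 6 were higher and 9 lower. Over all genes tested, these 2 fits called 1285 of 14593 and 2930 of 15138, beside 1941 of 14593 in the main fit. Fits that left out 1 library called 847 to 2696 genes. The median log2 fold change was 0.26 over the 35 genes and under 0.01 in size over all genes tested. Between the groups, 4 of the 35 genes did not overlap and were higher in DDKO, beside 8.34% of all genes tested, and 6 did not overlap and were lower, beside 8.87%. Of the 12 small-intestinal enterocyte markers (*Sis*, *Mttp* and others), 8 of 10 tested rose (1 of them, *Apoa1*, passed the filter through the DDKO group alone), the list going from a summed 408 to 483 CPM to 633 to 1589 CPM. The part of this shift in the results below was not tested.

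Basement membrane genes moved in both directions. Of the 23 genes 17 were tested, and 5 rose and 6 fell (64.7% of those tested, beside 13.3% of all genes tested), with a median log2 fold change of -0.07. The 5 include *Nid2* and *Col4a5*, which entered the test through the DDKO group alone. Of the other 39 genes 18 were tested, and 4 fell and 0 rose by edgeR (22.2%, beside the same 13.3%), with 2 higher at an unadjusted p under 0.05 (*Col3a1* and *Col25a1*), 0 higher by DESeq2 and 1 higher by limma-voom (*Col25a1*). The difference between these shares was not tested. Of the 11 fibrillar collagen genes 6 were tested and 0 passed the adjusted threshold by edgeR, DESeq2 or limma-voom. The summed level of the 23 basement membrane genes was 589 to 692 CPM in the Smad4 Vil-KO libraries and 486 to 864 CPM in the DDKO libraries, and the 2 ranges overlapped.

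**Figure D1:**
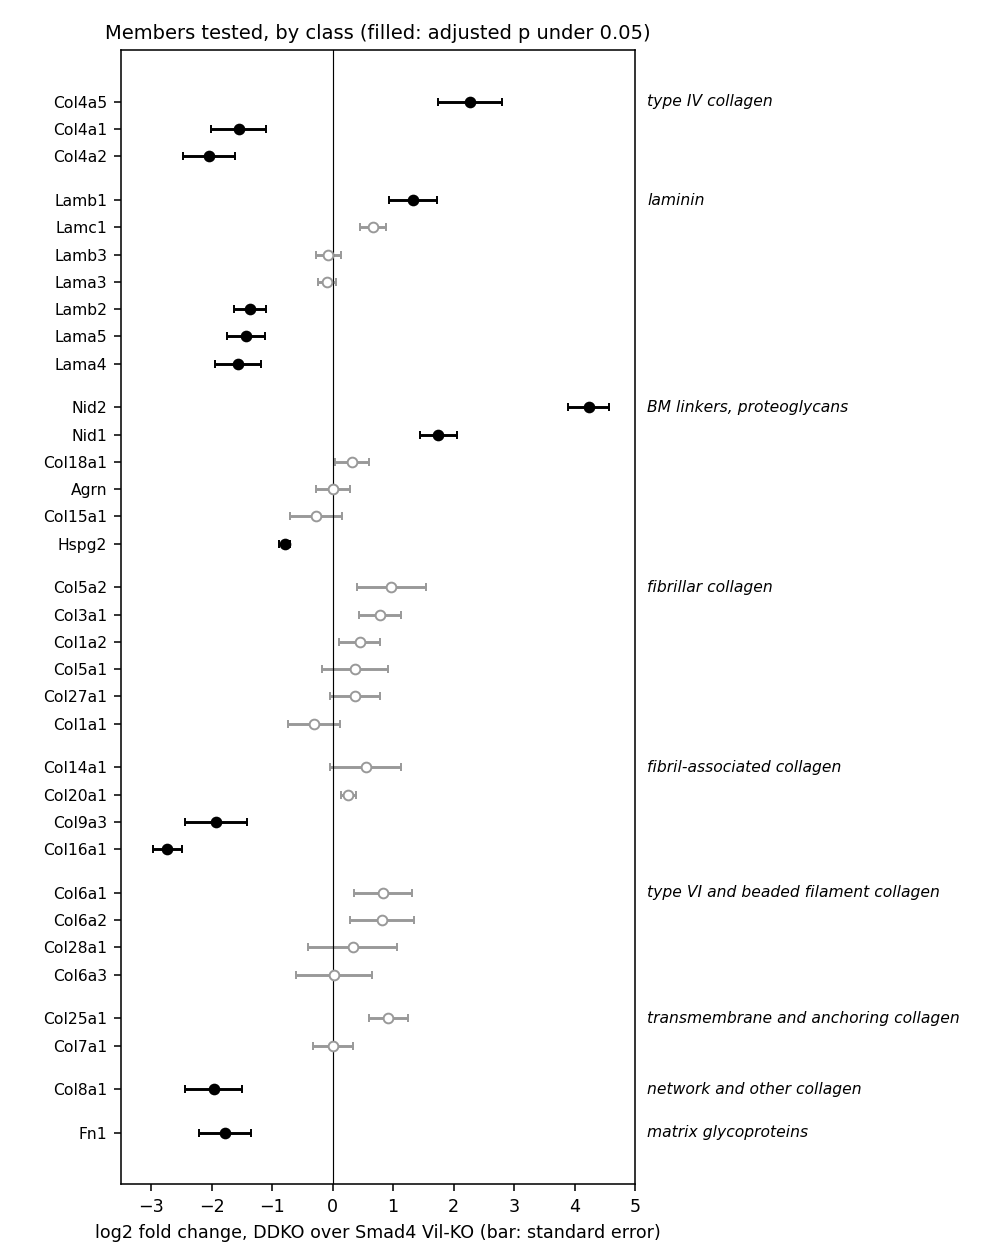
Each row is 1 of 34 matrix genes tested, grouped by class, and the point and bar are its log2 fold change (DDKO over Smad4 Vil-KO) and standard error, filled black where the adjusted p of the edgeR test was under 0.05. Filled points lie on both sides of 0 among the type IV collagens, laminins and linkers, and the 6 fibrillar collagens are all open.

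Of the type IV collagen chains, 3 were tested. *Col4a1* and *Col4a2*, which encode the α1 and α2 chains of the network present in every basement membrane, were lower in DDKO IECs. *Col4a5*, a chain of the minor networks that passed the filter through the DDKO group alone, was higher. *Col4a1* and *Col4a2* lie head to head on chromosome 8 and start 21 bases apart on opposite strands, so that a single stretch of DNA serves as promoter of both. The windows from 250 bases before to 50 bases after each start are shown because these neighbours fell together. They share 78 bases. In this and the later windows, capitals mark matches, on either strand, to the GC box GGGCGG, the CCAAT box CCAAT, the AP-1 site TGANTCA and the TATA box TATAAA, and the windows are those of RefSeq on GRCm38.p6, printed in the direction of transcription. *Col4a1* is on the minus strand (chr8:11312777-11313076) and *Col4a2* on the plus strand (chr8:11312555-11312854).
Col4a1: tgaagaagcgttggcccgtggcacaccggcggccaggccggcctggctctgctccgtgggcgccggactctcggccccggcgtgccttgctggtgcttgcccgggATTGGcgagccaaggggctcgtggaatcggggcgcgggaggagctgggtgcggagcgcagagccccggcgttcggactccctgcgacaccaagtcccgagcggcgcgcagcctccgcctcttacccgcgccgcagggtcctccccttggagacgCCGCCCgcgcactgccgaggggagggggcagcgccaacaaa
Col4a2: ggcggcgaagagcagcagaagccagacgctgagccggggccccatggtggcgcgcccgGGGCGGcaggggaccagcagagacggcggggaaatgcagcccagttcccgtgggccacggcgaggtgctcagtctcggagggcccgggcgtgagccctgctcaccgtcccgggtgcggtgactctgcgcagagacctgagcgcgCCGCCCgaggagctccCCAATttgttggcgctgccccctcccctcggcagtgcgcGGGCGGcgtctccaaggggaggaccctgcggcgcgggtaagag
Both windows held GC and CCAAT boxes and no TATA box. Of 32851 promoter windows of the same length, 35.7% held a GC box, 37.4% a CCAAT box, 7.81% the AP-1 letters and 13.6% a TATA box. The table had windows for 45 of the 62 genes, 51 windows in all, of which 32 held a GC box, 15 a CCAAT box, 1 the AP-1 letters and 8 a TATA box. A match is a description of the letters and not a bound site.

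*Col4a1* was at 2.57, 6.95, 9.70 and 14.5 CPM in libraries 1 to 4 of the Smad4 Vil-KO group and at 5.13, 2.77, 2.31, 2.60 and 1.40 CPM in DDKO 1 to 5. *Col4a2* was at 2.44, 6.72, 9.09 and 11.7 CPM and at 2.56, 2.21, 1.05, 2.12 and 1.09 CPM in the same order. For both genes Smad4 Vil-KO 1 lay within the DDKO range and the other 3 Smad4 Vil-KO libraries lay above it. *Col4a2* fell by 2.04 ± 0.43 on the log2 scale (SE, adjusted p = 0.0126) and *Col4a1* by 1.55 ± 0.46 (adjusted p = 0.0480). The call on *Col4a1* was lost in 7 of 9 fits that left out 1 library (all but Smad4 Vil-KO 1 and DDKO 1), with adjusted p from 0.0665 to 0.136, while that on *Col4a2* kept an adjusted p of 0.00449 to 0.0457 in such fits. With the term for Y-linked counts and with the replicate block, *Col4a2* missed the threshold (adjusted p = 0.0522 and 0.0597), as did *Col4a1* (0.122 and 0.169). *Acta2*, which encodes smooth muscle actin, was lower with these genes, at 9, 24, 27 and 17 counts in Smad4 Vil-KO 1 to 4, lowest in Smad4 Vil-KO 1 as here, and 6, 7, 4, 0 and 3 counts in DDKO 1 to 5. The groups did not overlap, and *Acta2* was too low to be tested. Of the other 7 smooth muscle markers, *Myh11*, *Tagln* and *Smtn* had higher DDKO means (0.496 and 0.700 CPM, 0.227 and 0.252 CPM, 23.4 and 23.9 CPM) and 4 had lower ones, and the part of smooth muscle or vessel RNA in these levels was not tested. The *Col4a1* count was 1.04 to 1.24 times the *Col4a2* count in the Smad4 Vil-KO group and 1.22 to 2.20 times in the DDKO libraries, ranges that overlapped by little.

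*Col4a5*, on chromosome X, was at 0.128, 0.119, 0.368 and 0.159 CPM in libraries 1 to 4 of the Smad4 Vil-KO group and at 0.385, 0.712, 1.61, 1.10 and 1.09 CPM in DDKO 1 to 5. The groups did not overlap, and the lowest DDKO library was close to the highest Smad4 Vil-KO library. The Smad4 Vil-KO libraries held 2 to 6 counts each, under the cutoff of the filter. Its log2 fold change was 2.27 ± 0.52 (adjusted p = 0.0192), and of the 5 fits without 1 library in which it passed the filter, those without Smad4 Vil-KO 1, 2 or 4 gave an adjusted p of 0.0609, 0.0590 and 0.0539. Its head-to-head partner *Col4a6*, whose start is 1343 bases away, had 0 to 8 counts per library and was not tested, and *Col4a3* and *Col4a4* had at most 2 and 5 counts.

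The laminins separated by chain. *Lama3* and *Lamb3*, an α and a β chain with which epithelium is anchored to its basement membrane through hemidesmosomes, were abundant and did not pass the test. Per kilobase of exon, *Lamb3* stood at 27.0 CPM in the Smad4 Vil-KO group and 25.7 CPM in the DDKO group, and *Lama3* at 4.61 and 4.32. *Lama5*, *Lamb2* and *Lama4* fell, and *Lamb1* rose. *Lama3* was at 41.0, 43.9, 50.1 and 63.3 CPM in the Smad4 Vil-KO libraries and at 36.9, 51.5, 43.9, 48.0 and 51.9 CPM in DDKO 1 to 5, with a log2 fold change of -0.09 (95% interval -0.41 to 0.22). The groups overlapped from 41.0 to 51.9 CPM.

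*Lamb3* split the DDKO libraries. It was at 168, 162, 199 and 186 CPM in the Smad4 Vil-KO libraries, at 207 and 256 CPM in DDKO 1 and 2, and at 123, 134 and 130.0 CPM in DDKO 3 to 5. DDKO 1 and 2 lay above the whole Smad4 Vil-KO range and DDKO 3 to 5 below it, and the log2 fold change over all libraries was -0.07 ± 0.21 (adjusted p = 0.844). *Agrn*, which encodes the proteoglycan agrin, held the same pattern, at 187, 159.9, 191 and 176 CPM in the Smad4 Vil-KO libraries, at 249 and 292 CPM in DDKO 1 and 2, and at 105, 128 and 125 CPM in DDKO 3 to 5, with a log2 fold change of 0.01 ± 0.28 (adjusted p = 0.981). Among all genes tested, 125 (0.857%) had DDKO 1 and 2 above and DDKO 3 to 5 below the Smad4 Vil-KO range. With DDKO 1 and 2 left out, which was chosen for this split and fixes the direction, the log2 fold change was -0.58 for *Agrn* and -0.46 for *Lamb3*. In the libraries without Y-linked counts, which leave out DDKO 1 and 2 as well as DDKO 5, it was -0.61 and -0.47. The split fixes the direction of that fit too, so its adjusted p (0.00574 and 0.0134, edgeR) is no separate support. It called both genes lower, among 2930 calls in 15138 genes tested. DDKO 1, 2 and 5 had 3857 to 4907 Y-linked counts, and their part in the split was not tested.

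*Lama5*, whose α5 chain is the main α chain of mature epithelial basement membranes, was at 16.1, 19.3, 24.9 and 32.4 CPM in the Smad4 Vil-KO libraries and at 13.7, 11.9, 5.59, 5.03 and 6.51 CPM in DDKO 1 to 5. The groups did not overlap, and it fell by 1.43 ± 0.32 on the log2 scale (adjusted p = 0.0157, and 0.0520 without Smad4 Vil-KO 3). *Lamb2*, a β chain that pairs with it, was at 13.0, 7.84, 12.2 and 10.7 CPM and at 3.14, 6.97, 3.78, 2.83 and 4.50 CPM. It did not overlap either and fell by 1.36 ± 0.27 (adjusted p = 0.00904). *Lama4*, an α chain best known from vessel walls, was at 2.44, 5.29, 5.34 and 9.37 CPM and at 1.67, 0.996, 2.80, 2.12 and 1.86 CPM. It fell by 1.56 ± 0.38 (adjusted p = 0.0232), with Smad4 Vil-KO 1 inside the DDKO range, and its adjusted p was 0.0617 without Smad4 Vil-KO 3 and 0.0686 without Smad4 Vil-KO 4. It also missed the threshold with the term for Y-linked counts (adjusted p = 0.155), in the libraries without such counts (0.108) and without DDKO 1 and 2 (0.0614), and *Lama5* missed it with the replicate block (0.0635).

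*Lamb1*, the other β chain that pairs with these α chains, was at 1.09, 1.43, 2.03 and 1.19 CPM in the Smad4 Vil-KO libraries and at 4.74, 5.91, 2.73, 3.38 and 1.40 CPM in DDKO 1 to 5. DDKO 5 lay within the Smad4 Vil-KO range and the other 4 DDKO libraries above it. It rose by 1.33 ± 0.40 on the log2 scale (adjusted p = 0.0489), a call that, of the fits leaving out 1 library, was kept only without DDKO 5 (adjusted p = 0.0103) and lost without any other library (adjusted p 0.0564 to 0.127). It also missed the threshold when Y-linked counts entered as a term (adjusted p = 0.198), without DDKO 1 and 2 (0.169), with limma-voom (0.0536) and with plain library sizes (0.0525). The *Lamb1* count was 0.0842 to 0.182 times the *Lamb2* count in the Smad4 Vil-KO group and 0.310 to 1.51 times in the DDKO libraries. These ranges did not overlap, and in DDKO 1 and 4 the *Lamb1* count was above that of *Lamb2*. The ratio sets a gene called higher against one called lower in the same libraries, so it is no separate support for either call.

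*Lamc1*, the γ chain of the trimers with β1 or β2, was at 5.97, 9.21, 9.03 and 9.45 CPM in the Smad4 Vil-KO libraries and at 16.2, 13.9, 14.0, 14.5 and 7.83 CPM in DDKO 1 to 5. DDKO 5 lay within the Smad4 Vil-KO range and the other 4 DDKO libraries above it. The log2 fold change was 0.66 ± 0.22 (adjusted p = 0.0683), and 0.82 without DDKO 5 (adjusted p = 0.00953). *Lamc1* passed as higher in 5 of 19 alternatives, that one and DESeq2 (adjusted p = 0.0234), limma-voom (0.0442), the replicate block (0.0373) and the libraries without Y-linked counts (0.0226), and its adjusted p ran up to 0.168 in the rest. The fibroblast markers *Dcn*, at 15.0, 20.2, 28.7, 16.4 and 5.66 CPM in DDKO 1 to 5, and *Vim*, at 19.2, 20.4, 17.7, 19.1 and 7.83 CPM, were lowest in DDKO 5 as well, like *Lamb1* and *Lamc1*. *Thy1* was lowest there too, at 9.68, 7.12, 6.29, 5.03 and 1.86 CPM. *Pdgfrb*, at 8.08, 8.25, 9.86, 11.4 and 10.5 CPM, and *Fbln1*, at 24.5, 16.9, 18.7, 25.2 and 18.3 CPM, were not. *Pdgfrb*, *Thy1* and *Fbln1*, the other 3 fibroblast markers tested, had log2 fold changes of 0.11, 0.03 and -0.14. Among the DDKO libraries, the summed leukocyte markers were lowest in DDKO 5 as well (62.0 CPM, the others 114 to 156 CPM). The same held for the small-intestinal enterocyte markers (633 CPM, the others 1014 to 1589 CPM). In Smad4 Vil-KO 1 to 4, *Dcn* was at 3.02 to 10.3 CPM and *Vim* at 9.11 to 14.9 CPM, and the part of fibroblast RNA in these laminin levels was not tested. *Lama1*, *Lama2* and *Lamc3* had at most 1, 10 and 8 counts in a library and were not tested.

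**Figure D2:**
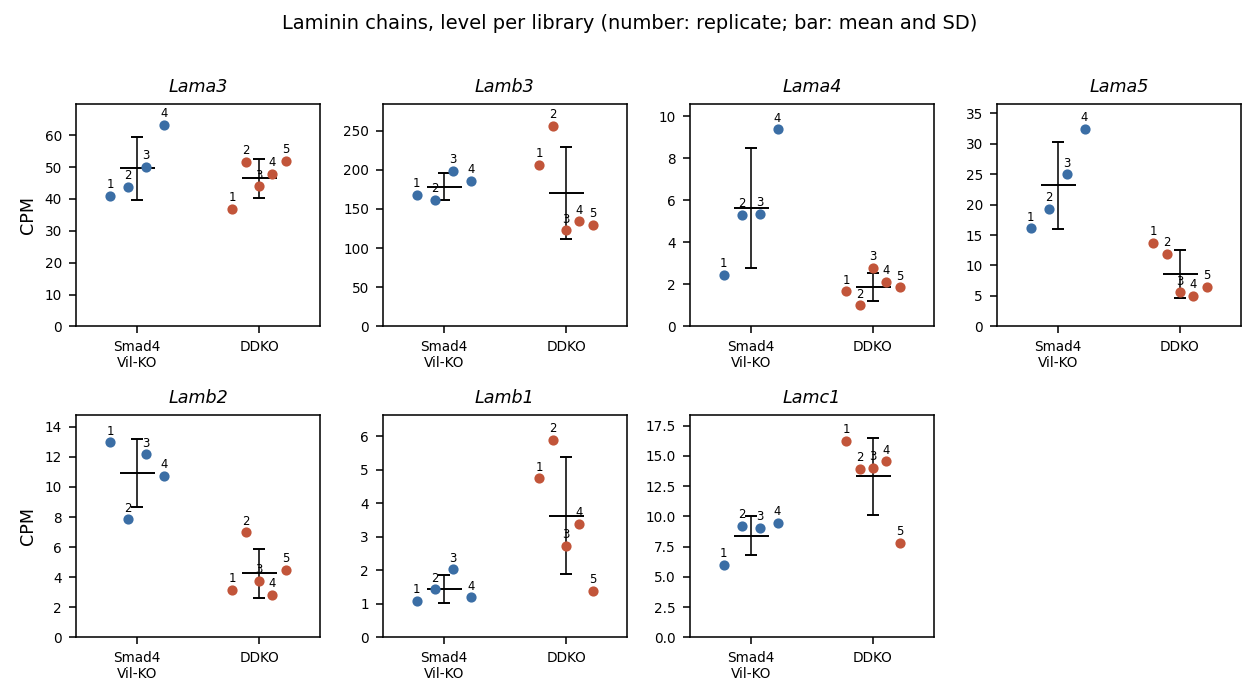
CPM of 7 laminin chains in each library (blue, 4 Smad4 Vil-KO; red, 5 DDKO; numbers, replicate; bars, mean and SD), each on its own axis from 0. *Lama5* and *Lamb2* do not overlap between the groups, and in *Lamb3* DDKO 1 and 2 lie above and DDKO 3 to 5 below the Smad4 Vil-KO libraries.

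The nidogens rose and perlecan fell. Nidogen 1 and nidogen 2 are related glycoproteins that bind both laminin and type IV collagen, and *Nid2* had the largest log2 fold change of the 35 genes tested, one of the genes that passed the filter through the DDKO group alone. *Nid2* was at 0.257, 0.357, 0.368 and 0.318 CPM in the Smad4 Vil-KO libraries, 4 to 6 counts each, and at 4.61, 5.55, 8.95, 4.33 and 7.91 CPM in DDKO 1 to 5. Every DDKO library was more than 10 times the highest Smad4 Vil-KO library, with a log2 fold change of 4.23 ± 0.33 (18.8-fold, adjusted p = 4.49e-05). Of its exon bases, 8.45% overlap *Rtraf* on the opposite strand, and the sources used here do not state whether counting used strand. *Nid1* was at 1.54, 2.61, 2.46 and 3.18 CPM and at 6.47, 5.48, 13.4, 8.49 and 7.21 CPM, without overlap, with a log2 fold change of 1.75 ± 0.30 (3.36-fold, adjusted p = 0.00522). Both calls held with any single library left out. Both genes were highest in DDKO 3, the library in which the fibroblast marker *Dcn* (28.7 CPM) and all 6 fibrillar collagens tested were highest too. The other 4 fibroblast markers tested, *Vim*, *Pdgfrb*, *Thy1* and *Fbln1*, were not highest there. Group means of *Dcn* were 6.73 and 17.2 CPM (adjusted p = 0.0766), and the part of fibroblast RNA in the nidogen levels was not tested.

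The *Nid2* count was 0.100 to 0.167 times the *Nid1* count in the Smad4 Vil-KO group and 0.509 to 1.10 times in the DDKO libraries. Per kilobase of exon, *Nid1* stood at 0.352 CPM and *Nid2* at 0.0628 CPM in the Smad4 Vil-KO group, and at 1.18 and 1.21 CPM in the DDKO group. In the DDKO group these 2 levels were thus within the spread of the libraries. The promoter window of *Nid1*, on the plus strand (chr13:13437352-13437651), is shown as that of a gene that rose, and the table used here had no window for *Nid2*.
Nid1: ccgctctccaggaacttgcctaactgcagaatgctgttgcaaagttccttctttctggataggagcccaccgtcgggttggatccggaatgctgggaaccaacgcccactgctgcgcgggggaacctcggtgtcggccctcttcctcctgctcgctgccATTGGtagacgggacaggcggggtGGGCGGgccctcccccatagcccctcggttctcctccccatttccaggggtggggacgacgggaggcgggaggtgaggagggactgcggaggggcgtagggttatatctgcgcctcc
It held a GC box and a CCAAT box, as did the windows of *Col4a1* and *Col4a2*, which fell.

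*Hspg2*, which encodes perlecan, the heparan sulphate proteoglycan of basement membranes, was at 68.2, 79.3, 73.1 and 71.9 CPM in the Smad4 Vil-KO libraries and at 35.8, 40.3, 48.2, 43.7 and 43.0 CPM in DDKO 1 to 5. The groups were tight and well apart, and it fell by 0.79 ± 0.09 on the log2 scale (0.577-fold, adjusted p = 0.000844), the smallest standard error of the 35 genes. The remaining linkers, *Col15a1* and *Col18a1*, which encode the collagens with endostatin-like ends, did not pass the test, with log2 fold changes of -0.28 (95% interval -1.21 to 0.66) and 0.32 (95% interval -0.31 to 0.95).

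**Figure D3:**
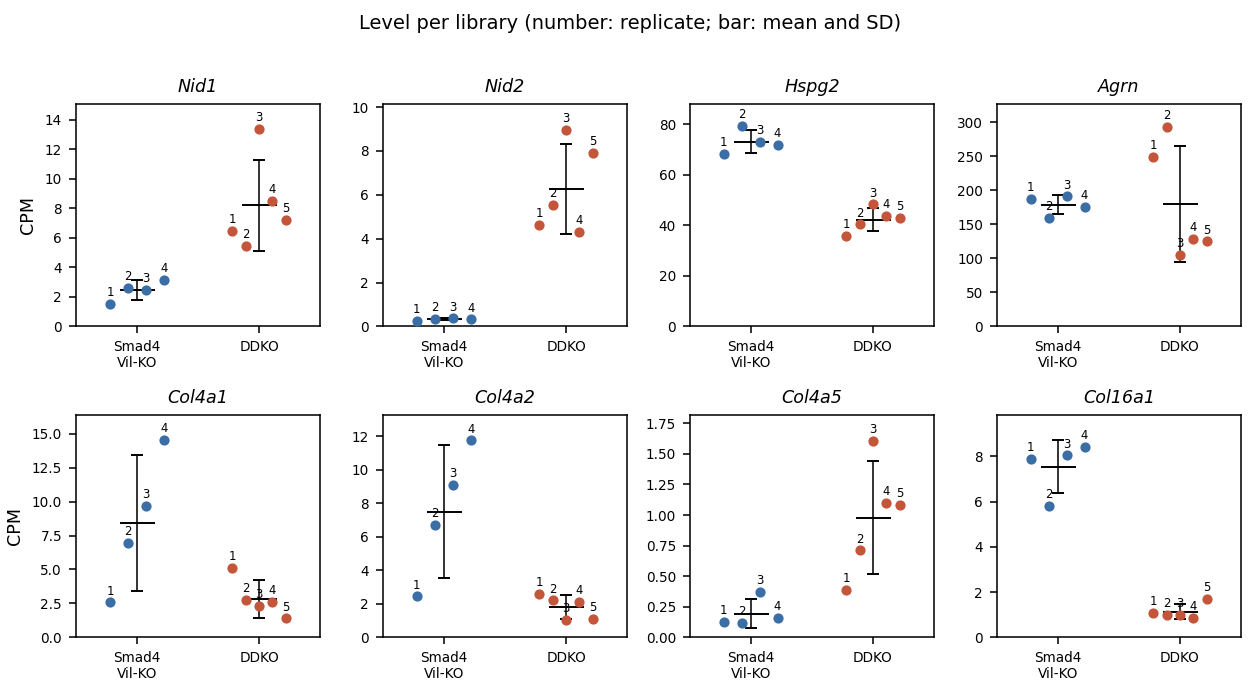
CPM of *Nid1*, *Nid2*, *Hspg2*, *Agrn*, *Col4a1*, *Col4a2*, *Col4a5* and *Col16a1* in each library (blue, 4 Smad4 Vil-KO; red, 5 DDKO; numbers, replicate; bars, mean and SD), each on its own axis from 0. *Nid1*, *Nid2*, *Hspg2*, *Col4a5* and *Col16a1* do not overlap between the groups, *Col4a1* and *Col4a2* overlap through Smad4 Vil-KO 1, and *Agrn* falls on both sides.

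Fibrillar collagens, the load-bearing fibres of the interstitial matrix, were low and did not pass the test in either direction. Of the 6 tested, 5 had a positive log2 fold change, and the 6 ranged from -0.31 to 0.97 with a median of 0.41. *Col3a1* was the highest, at 3.98, 5.35, 8.17 and 4.37 CPM in the Smad4 Vil-KO libraries and at 8.14, 8.11, 17.8, 5.19 and 7.75 CPM in DDKO 1 to 5. Its log2 fold change was 0.78 ± 0.35 (unadjusted p = 0.0464, adjusted p = 0.156, edgeR), and it was the 1 fibrillar gene of the 6 with an unadjusted p under 0.05.

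*Col1a2* and *Col1a1*, the chains of type I collagen, did not differ beyond the spread of the libraries. *Col1a2* was at 1.54, 2.97, 3.38 and 2.30 CPM in the Smad4 Vil-KO libraries and at 2.56, 3.27, 6.01, 2.20 and 3.33 CPM in DDKO 1 to 5 (log2 fold change 0.45, 95% interval -0.29 to 1.19). *Col1a1* was at 1.86, 2.32, 3.38 and 1.59 CPM and at 1.09, 1.57, 3.99, 0.944 and 1.63 CPM (-0.31, 95% interval -1.25 to 0.63). For *Col5a1*, *Col5a2* and *Col27a1*, with group means of 0.580 to 1.15 CPM, the log2 fold changes were 0.37, 0.97 and 0.37, with adjusted p from 0.271 to 0.679. These intervals are wide and do not show that the genes were alike in both groups.

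DDKO 3 held the highest value of any library for all 6 fibrillar collagens tested, and their summed level with the other fibrillar chains was 33.2 CPM there, 10.4 to 16.2 CPM in the other 4 DDKO libraries and 8.73 to 18.3 CPM in the Smad4 Vil-KO libraries. *Dcn*, which encodes the fibroblast proteoglycan decorin, was highest in DDKO 3 as well, at 28.7 CPM, beside 5.66 to 20.2 CPM in the other DDKO libraries and 3.02 to 10.3 CPM in the Smad4 Vil-KO libraries. *Vim*, *Pdgfrb*, *Thy1* and *Fbln1* were at 17.7, 9.86, 6.29 and 18.7 CPM in DDKO 3, each below another DDKO library. Of the 12 fibroblast markers 5 were tested and 0 passed in either direction by edgeR (2 were higher at an unadjusted p under 0.05), and their summed level ran from 42.3 to 64.0 CPM in the Smad4 Vil-KO libraries and 45.2 to 84.2 CPM in the DDKO libraries. *Foxl1* had 0 counts in every library and *Lum*, *Mfap5*, *Pdpn* and *Twist1* had under 10. The part of fibroblast RNA in the collagen levels was not tested, and in bulk RNA fewer cells of a type and less RNA per cell cannot be told apart. Without DDKO 3 the log2 fold change of *Col3a1* was 0.42 (adjusted p = 0.300).

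**Figure D4:**
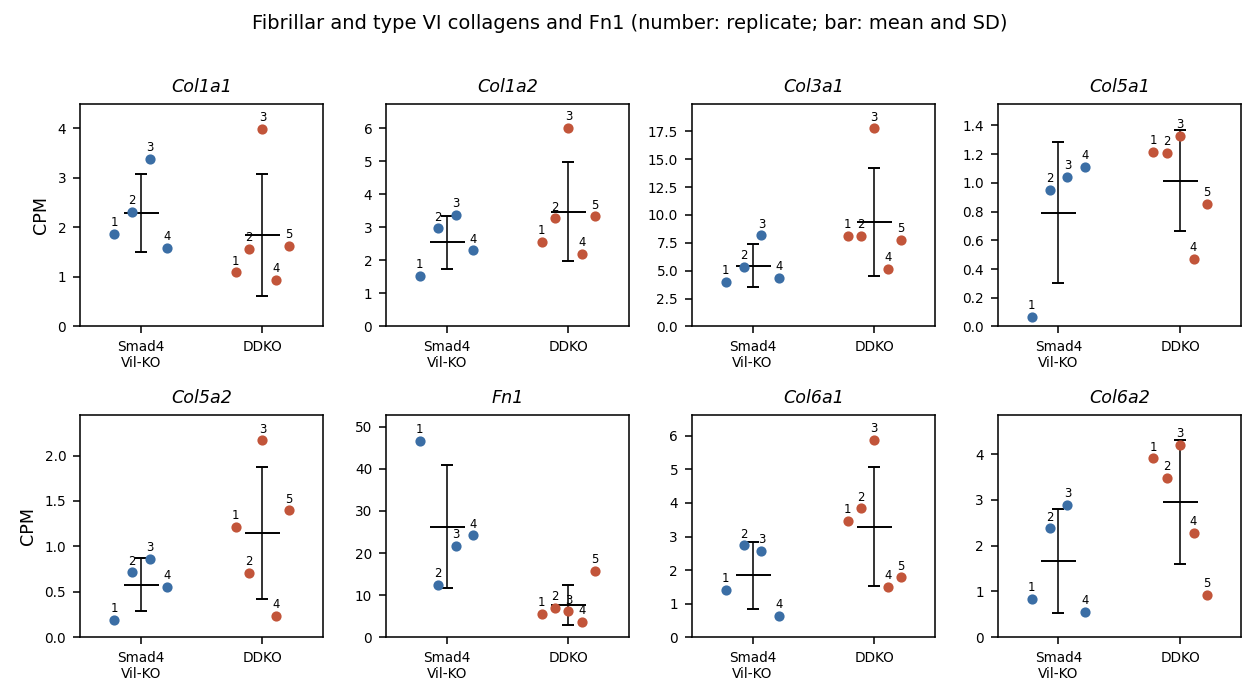
CPM of 5 fibrillar collagen genes, *Fn1* and 2 type VI collagen genes in each library (blue, 4 Smad4 Vil-KO; red, 5 DDKO; numbers, replicate; bars, mean and SD), each on its own axis from 0. DDKO 3 is the highest library for every collagen shown, and the groups overlap in all 8 genes.

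Of the 4 fibril-associated collagens tested, which sit on or beside fibrils, 2 fell and 2 did not pass the test. Over all genes tested, 6.54% were lower. *Col16a1*, a fibril-associated collagen, had the largest decrease of the 35 genes. It was at 7.89, 5.82, 8.05 and 8.42 CPM in the Smad4 Vil-KO libraries and at 1.09, 0.996, 0.979, 0.865 and 1.71 CPM in DDKO 1 to 5, with no overlap. It fell by 2.74 ± 0.24 on the log2 scale (0.150-fold, adjusted p = 0.0001), and the adjusted p was 4.91e-05 to 9.71e-04 with any 1 library left out. Its promoter window, on the plus strand (chr4:130047590-130047889), is shown for this reason.
Col16a1: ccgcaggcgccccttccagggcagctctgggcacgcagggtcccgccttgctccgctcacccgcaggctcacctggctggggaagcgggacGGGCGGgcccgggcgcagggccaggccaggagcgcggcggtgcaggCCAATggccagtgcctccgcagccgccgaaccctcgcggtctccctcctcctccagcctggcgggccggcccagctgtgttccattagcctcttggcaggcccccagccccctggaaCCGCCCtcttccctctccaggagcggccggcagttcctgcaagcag
It held GC boxes on both strands and 1 CCAAT box.

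*Col9a3*, a chain of the fibril-associated type IX collagen, was at 1.22, 2.20, 3.13 and 4.45 CPM in the Smad4 Vil-KO libraries and at 1.15, 0.996, 0.140, 0.865 and 0.388 CPM in DDKO 1 to 5. The highest DDKO library was just under the lowest Smad4 Vil-KO library, and it fell by 1.93 ± 0.51 on the log2 scale (adjusted p = 0.0327). The adjusted p was 0.0575 to 0.0935 without Smad4 Vil-KO 2, 3 or 4 or DDKO 4, 0.102 with the replicate block and 0.0696 when Y-linked counts entered as a term. Of its exon bases, 6.07% overlap a neighbour, *Tcfl5*. *Col20a1*, the most abundant collagen per kilobase at 2.72 and 3.26 CPM in the 2 groups, had a log2 fold change of 0.26 (95% interval -0.02 to 0.55), and *Col14a1* one of 0.55 (95% interval -0.73 to 1.82).

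*Col8a1*, a short-chain network collagen, was at 1.73, 7.13, 2.09 and 3.02 CPM in the Smad4 Vil-KO libraries and at 0.385, 0.854, 1.12, 1.18 and 0.931 CPM in DDKO 1 to 5. The groups did not overlap, and it fell by 1.97 ± 0.46 on the log2 scale (adjusted p = 0.0204, and 0.0567 with a fall of 1.35 without Smad4 Vil-KO 2, its highest library). It also missed the threshold with the term for Y-linked counts (adjusted p = 0.136), in the libraries without such counts (0.0921), without DDKO 1 and 2 (0.0540) and with limma-voom (0.0594). Of the type VI collagens, which form beaded filaments around cells, none of the 3 tested passed by edgeR, and 0 had an unadjusted p under 0.05. *Col6a1*, *Col6a2* and *Col6a3* had log2 fold changes of 0.83, 0.82 and 0.02 with adjusted p of 0.268, 0.314 and 0.986. *Col28a1*, a related chain, had 0.33 (adjusted p = 0.796), *Col7a1*, the collagen of anchoring fibrils, 0.01 (adjusted p = 0.990), and *Col25a1*, a transmembrane collagen, 0.92 (adjusted p = 0.0812).

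*Fn1*, which encodes fibronectin, the adhesive glycoprotein of wound matrix and of plasma, was at 46.7, 12.4, 21.6 and 24.2 CPM in the Smad4 Vil-KO libraries and at 5.58, 7.04, 6.15, 3.62 and 15.8 CPM in DDKO 1 to 5. Only DDKO 5 reached into the Smad4 Vil-KO range. It fell by 1.78 ± 0.43 on the log2 scale (adjusted p = 0.0232), with an adjusted p of 0.0736 without Smad4 Vil-KO 1, its highest library, 0.0535 without Smad4 Vil-KO 3 and 0.0653 without DDKO 1 and 2. *Itga5*, the α chain of the main fibronectin receptor, fell as well, from 24.8 to 32.4 CPM to 8.81 to 16.1 CPM, without overlap (log2 fold change -1.20 ± 0.18, adjusted p = 0.00247).

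The 27 genes not tested had at most 60 counts in any library. *Tnc*, which encodes tenascin C, a glycoprotein of injured and remodelled tissue, had 4, 5, 3 and 5 counts in Smad4 Vil-KO 1 to 4 and 60, 56, 8, 0 and 8 counts in DDKO 1 to 5. DDKO 1 and 2 stood apart from the rest, and without a filter on low counts its log2 fold change was 2.65 (adjusted p = 0.0800). *Col12a1*, a fibril-associated collagen, had 1, 3, 6 and 4 counts and 30, 24, 11, 5 and 3 counts, again highest in DDKO 1 and 2, with a log2 fold change of 2.09 without the filter (adjusted p = 0.0735). *Vtn*, which encodes vitronectin, had 0 counts in all 9 libraries. *Col6a4* had 0 to 2 counts in the Smad4 Vil-KO libraries and 3 to 6 counts in the DDKO libraries. It was at or under the floor of 3 counts per library in every Smad4 Vil-KO library, and its DDKO mean was at least 1.65-fold higher than that floor. The other 23 genes were *Col2a1*, *Col4a3*, *Col4a4*, *Col4a6*, *Col5a3*, *Col6a5*, *Col6a6*, *Col8a2*, *Col9a1*, *Col9a2*, *Col10a1*, *Col11a1*, *Col11a2*, *Col13a1*, *Col17a1*, *Col19a1*, *Col22a1*, *Col23a1*, *Col24a1*, *Col26a1*, *Lama1*, *Lama2* and *Lamc3*, with at most 12 counts in any library.

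Genes that fold, cross-link, cut and bind these proteins were read from lists. Of 30 collagen folding and cross-linking enzymes 17 were tested, and 2 rose and 6 fell, beside 6.76% and 6.54% of all genes tested, with a median log2 fold change of -0.18. Those that fell included prolyl and lysyl hydroxylases of procollagen, *P4ha1* by 0.80 ± 0.15 (adjusted p = 0.00692), *P3h1* by 1.73 ± 0.33 (0.00849) and *Plod3* by 0.47 ± 0.10 (0.0156), and *P3h4*, a partner of lysyl hydroxylation, by 1.10 ± 0.25 (0.0190). *P4ha2* and *Plod1* were the other 2. *P3h2*, the prolyl 3-hydroxylase known to act on type IV collagen, and *Loxl4*, a lysyl oxidase, were at or under 3 counts in every Smad4 Vil-KO library and were at least 8.28-fold and 8.34-fold higher in DDKO, through which alone they passed the filter. The median was the same with these 2 genes set at their bounds.

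Of 18 other basement membrane genes 14 were tested, and by edgeR 3 rose and 0 fell (5 and 0 at an unadjusted p under 0.05), beside 6.76% and 6.54% of all genes tested, with a median log2 fold change of 0.46. They were *Papln* (2.35 ± 0.40, adjusted p = 0.00469), *Fras1* (2.69 ± 0.62, adjusted p = 0.0192), a part of the sheet between epithelium and mesenchyme in the embryo, which had 0 to 4 counts in the Smad4 Vil-KO libraries and passed the filter through the DDKO group alone, and *Tinagl1* (1.16 ± 0.30, adjusted p = 0.0282). *Papln* was at 0.577 to 1.41 CPM in the Smad4 Vil-KO libraries and at 2.48 to 7.47 CPM in the DDKO libraries, without overlap. Of 25 matrix receptors 23 were tested and 4 passed, beside 13.3% of all genes tested. *Itga2* (0.79 ± 0.15, adjusted p = 0.00725), the α chain of a collagen-binding integrin, and *Itgav* (0.46 ± 0.12, adjusted p = 0.0302) rose, while *Itga5* and *Sdc4* (-0.36 ± 0.08, adjusted p = 0.0185) fell.

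Of 23 metalloproteinases and inhibitors 11 were tested and 2 passed, beside the same 13.3%. *Mmp14*, which encodes a membrane-bound collagenase, rose from 88.5 to 137 CPM to 156 to 220.2 CPM (0.71 ± 0.14, adjusted p = 0.00904), and *Timp4*, an inhibitor, fell (-1.60 ± 0.27, adjusted p = 0.00474). Of 33 interstitial matrix proteins other than collagens 18 were tested, and by edgeR 0 rose (3 at an unadjusted p under 0.05) and 2 fell, *Spp1* (-3.88 ± 0.80, adjusted p = 0.0114), which encodes osteopontin, and *Thbs4* (-0.68 ± 0.17, adjusted p = 0.0285), with a median of 0.04. These 2 of 18 stand beside 13.3% of all genes tested, and counts this small are read as no result about the list.

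Most markers of smooth muscle, of endothelial cells and of enteric glia and neurons were low. Of 8 smooth muscle markers 1 was tested, of 10 endothelial markers 3 and of 8 markers of enteric glia and neurons 3. Of these 7 genes 1 passed, beside 13.3% of all genes tested. It was *Elavl4*, which rose and passed the filter through the DDKO group alone. The endothelial sum was 12.5 to 14.5 CPM in the Smad4 Vil-KO libraries and 11.8 to 14.5 CPM in the DDKO libraries, with *Cldn5* at 0 counts, and the smooth muscle sum was 23.5 to 29.5 CPM and 17.7 to 33.5 CPM, of which *Smtn* made 21.0 to 27.8 CPM and 16.0 to 31.0 CPM. The glial and neuronal sum was 3.68 to 5.05 CPM and 4.47 to 7.16 CPM, with *Sox10* at 0 counts. The 15 leukocyte markers were all tested and 0 passed by edgeR, also at an unadjusted p under 0.05, with sums of 76.6 to 193 CPM and 62.0 to 156 CPM. Of the endothelial markers tested, *Vwf*, *Pecam1* and *Lyve1* had log2 fold changes of -0.25, 0.37 and 0.21, and of those not tested *Emcn* had group means of 0.825 and 0.370 CPM, *Tek* 0.342 and 0.168 CPM and *Kdr* 0.153 and 0.368 CPM. *Lama4*, *Col4a1* and *Col4a2* are known from vessel walls, and the part of vessel RNA in their levels was not tested.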

How the data were processed

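RNA-seq was done on colon IECs of 4 Smad4 Vil-KO and 5 DDKO libraries, grouped by the genotype in the labels. The authors deposited whole-number counts per gene symbol and library, not normalized. The submitters' processing notes name HISAT2 2.0 and mm10, and the counting program, annotation and use of strand are not given in the sources used here. Reads of overlapping genes could therefore be split or shared. Total counts were 12487129 to 17120202 per library, and a gene at or under 3 counts in every library of a group was taken to be at the floor. The sources used here name no molecular identifiers that would mark PCR duplicates, and floors cover counting error only.

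Computation used R 4.3.3 and edgeR 4.0.16. The filterByExpr function left 14593 of 46095 genes, which were TMM-normalized and compared by the quasi-likelihood test of edgeR without covariates, with p-values adjusted by Benjamini-Hochberg over these genes. The SE is the size of the log2 fold change divided by the root of F, and intervals are 95%. CPM are from TMM library sizes, and levels per kilobase use merged exons of GENCODE on GRCm38, the assembly of mm10. Promoter windows were matched by symbol to RefSeq.

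The genes and lists were chosen with earlier results of these data known. Values in every library are given for genes with an adjusted p under 0.05, the 3 most abundant of the type IV collagens, laminins and fibrillar collagens, and the named glycoproteins. *Lamc1*, *Tnc*, *Col12a1*, *Col6a4*, *Dcn*, *Vim*, *Pdgfrb*, *Thy1*, *Fbln1* and *Acta2* are given outside this rule and were chosen after their values were seen. 1 gene that met the rule is counted in the totals and not reported here. Of companion lists at most 4 genes in each direction are given values.

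Alternatives were DESeq2 1.42.0, limma-voom (limma 3.58.1) with quality weights, edgeR with size factors from DESeq2 or with plain library sizes, no filter, at least 10 counts in every library, a block for replicate number, a term for libraries with over 1000 Y-linked counts, the libraries without them, each library left out, and calls by an unadjusted p under 0.05 and over 1.5-fold change. Leaving out DDKO 1 and 2 together was added after the data were seen. Libraries of a genotype differed beyond sampling noise (smallest chi-square 9.91 per gene) and were counted as separate replicates. Such a difference does not show that each came from a separate animal.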

Additional observations from a re-analysis of the deposited data

Results flagged for a closer look

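In 70 groups of library values of the genes tested, 10 had 1 library whose gap to its nearest neighbour was a larger share of the range than Dixon's 95% critical value, and chance gives about 1 flag in 20 groups. DDKO 3 was far above the other DDKO libraries in *Col3a1* (17.8 CPM, the others 5.19 to 8.14), *Col1a1* (3.99 CPM, the others 0.944 to 1.63) and *Col14a1* (3.22 CPM, the others 0.385 to 1.18). DDKO 5 was far above the others in *Fn1* (15.8 CPM) and *Col16a1* (1.71 CPM), and far below them in *Lamc1* (7.83 CPM, the others 13.9 to 16.2). Smad4 Vil-KO 1 was far below the others in *Lamc1* (5.97 CPM), *Col18a1* (1.35 CPM) and *Col5a1* (0.0642 CPM, which was 1 count). Smad4 Vil-KO 3 was far above the others in *Col4a5* (0.368 CPM, the others 0.119 to 0.159).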

How the results depend on the processing

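The 15 called genes were refitted 276 times, and in 219 fits the call and its direction were kept, in 57 the threshold was missed and in 0 the direction turned. *Col16a1*, *Hspg2*, *Lamb2*, *Nid1* and *Nid2* kept an adjusted p under 0.05 under every alternative that could test them. *Col4a1* and *Lamb1* lost it in 12 of 19. Leaving out 1 library gave 2 to 5 higher and 5 to 10 lower genes, of which 2 to 5 and 3 to 6 were basement membrane genes, and 0 fibrillar collagens in either direction. The fewest lower genes came without Smad4 Vil-KO 3, which also left 847 calls over all genes tested in place of 1941. With a filter of 10 counts in every library, 3 genes were higher, all of the basement membrane. With the term for Y-linked counts, 3 were higher (3 of the basement membrane) and 5 lower (3). When calls needed over 1.5-fold change and an unadjusted p under 0.05, 8 were higher, of which 1 was a fibrillar collagen, *Col3a1*. With the replicate number as a block over replicates 1 to 4, 5 genes rose (all in the basement membrane) and 6 fell (3 in the basement membrane). Over all genes tested, the filter of 10 counts gave 1641 calls of 12751 and the Y-linked term 1285 of 14593. The rule with 1.5-fold change gave 2011 of 14593 and the replicate block 1581 of 14495. The deviations of same-numbered libraries correlated at -0.13 to 0.08, and 0 of 4 Smad4 Vil-KO libraries matched their own number best. The paper used littermates as controls, and the labels do not say which libraries came from 1 litter or batch. A pairing by litter or batch was not tested.

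Several genes that did not pass the test over all 9 libraries changed sign. *Agrn* was at -0.35 on the log2 scale with limma-voom, -0.0070 without a filter and -0.62 with the Y-linked term. With 1 library left out it ranged from -0.23 to 0.17. It was at -0.61 in the libraries without Y-linked counts (past the threshold, adjusted p = 0.00574, edgeR) and -0.58 without DDKO 1 and 2. Both of these fits leave out DDKO 1 and 2, which fixes their direction. *Col28a1* was at -0.43 with limma-voom, -0.37 with the Y-linked term, -0.38 in the libraries without Y-linked counts, -0.84 without DDKO 1 and 2 and -0.039 to 0.82 with 1 library left out. *Col7a1* was at -0.0080 without a filter, -0.13 with the block and -0.20 to 0.19 with 1 library left out. *Col1a1* was at 0.11 with the Y-linked term and 0.12 in the libraries without Y-linked counts. *Col6a3* was at -0.068 with limma-voom and -0.28 to 0.61 with 1 library left out. With 1 library left out *Col14a1* ranged from -0.075 to 0.81, *Col5a1* from -0.0098 to 0.56, *Lama3* from -0.17 to 0.041 and *Lamb3* from -0.26 to 0.034. The cause was not tested. A gene with few counts, such as *Col4a5*, could not be tested with 10 counts in every library.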
